A study of Mus musculus with 2 samples.

Results

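The genes described here make, inactivate or sense prostaglandins, lipid signals that act over short distances: the cyclooxygenases Ptgs1 and Ptgs2, the synthases Ptges, Ptges2, Ptgds and Ptgis, the breakdown enzyme Hpgd, and the receptors Ptger1, Ptger2 and Ptger4. They were a given list of named genes, each taken by Ensembl identifier where both gene tables hold it. All 10 were found among the 43346 mouse genes of each table. The tissue was the kidney of healthy B6NCrl mouse embryos at day 16.5, taken from animals of both sexes and pooled. There was 1 group with 2 libraries, which the labels give as biological replicates. Replicate 2 was pooled from 41 embryos, the number behind replicate 1 is not stated, and both carry the same donor label. No allele, agent or second condition is named, so levels were compared between genes and between the 2 pools.

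Prostaglandins are made from arachidonic acid, which phospholipases free from membranes. A cyclooxygenase turns it into the unstable intermediate prostaglandin H2, and terminal synthases turn that into prostaglandin E2, D2, prostacyclin and others. The products leave the cell, act on G protein-coupled receptors nearby, and are taken up and oxidised by Hpgd. In the kidney the pathway is known for its part in blood flow, renin release and the handling of salt and water, and mice without Ptgs2 develop abnormal kidneys.

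Ptgs1, often called the constitutive cyclooxygenase, was the highest of the 10 genes, and Ptgs2, the inducible enzyme, was the second lowest. Levels are in TPM, transcript abundance scaled to transcript length and to the same sum in each library so that genes can be set side by side, and the range given with a level is its deposited lower and upper bound. Ptgs1 (ENSMUSG00000047250.9, chr2:36230426-36252272 on GRCm38, plus strand) stood at 32.8 TPM in replicate 1 (30.6 to 34.9) and 33.4 in replicate 2 (31.4 to 35.7), from 1817 and 2046 counts. Ptgs2 (ENSMUSG00000032487.8, chr1:150100031-150108227, plus strand) stood at 1.08 TPM in replicate 1 (0.913 to 1.97) and 1.49 in replicate 2 (1.15 to 2.66), from 108 and 142 counts. Both libraries thus placed Ptgs1 far above Ptgs2, with no overlap of levels or bounds. The ratio of Ptgs1 to Ptgs2 in TPM was 30.3 in replicate 1 and 22.4 in replicate 2, and with the bounds set against each other at their extremes it was 15.5 to 38.2 and 11.8 to 31.1. Among 21474 protein-coding genes, 77.2% had a lower mean TPM than Ptgs1 and 38.4% a lower one than Ptgs2.

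The stretches before the annotated starts of the cyclooxygenases are shown because among the enzymes of the 10 genes this is the pair for the same step whose levels differed most. Sequences are from RefSeq on GRCm38, 250 bases up to the base before the start, plus strand, with capitals for matches to the motifs searched. The Ptgs1 window is chr2:36230176-36230425 and the Ptgs2 window chr1:150099781-150100030.
Ptgs1 promoter: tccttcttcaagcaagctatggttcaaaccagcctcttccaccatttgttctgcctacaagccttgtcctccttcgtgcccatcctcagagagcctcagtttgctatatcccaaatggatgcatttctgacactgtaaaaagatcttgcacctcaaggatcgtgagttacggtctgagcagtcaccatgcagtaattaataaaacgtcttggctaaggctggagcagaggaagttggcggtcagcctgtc
Ptgs2 promoter: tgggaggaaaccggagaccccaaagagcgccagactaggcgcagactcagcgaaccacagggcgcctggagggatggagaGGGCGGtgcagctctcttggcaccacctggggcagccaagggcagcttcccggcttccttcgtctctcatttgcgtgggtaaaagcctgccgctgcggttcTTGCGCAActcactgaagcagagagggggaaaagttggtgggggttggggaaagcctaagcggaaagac
Ptgs2 after the start: caccactaCGTCACGTGgagtccgcttt

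The motifs were searched on both strands from 250 bases before to 50 bases after each start, and 8 of the 10 genes had such a window. They were the E-box CACGTG, the core TGACG of the cyclic AMP response element, the C/EBP palindrome TTGCGCAA, the TATA box TATAAA, the Sp1 site GGGCGG and the CCAAT box. None of these letters occurred in the Ptgs1 window. In the Ptgs2 window the C/EBP palindrome began 69 bases before the start and an Sp1 site 170 bases before it. The short Ptgs2 stretch (chr1:150100036-150100063) holds the cyclic AMP core, read on the minus strand from base 14 after the start, and an E-box from base 17 that overlaps it. Of 32851 windows, 0.183% held the C/EBP palindrome, 7.15% the E-box, 20.8% the cyclic AMP core, 13.6% the TATA box, 35.7% the Sp1 site and 37.4% the CCAAT box. Of the 8 member windows, 1 held the palindrome, 2 the E-box, 1 the cyclic AMP core, 1 the TATA box, 4 the Sp1 site and 2 the CCAAT box. These matches describe the letters only.

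**Figure D1:**
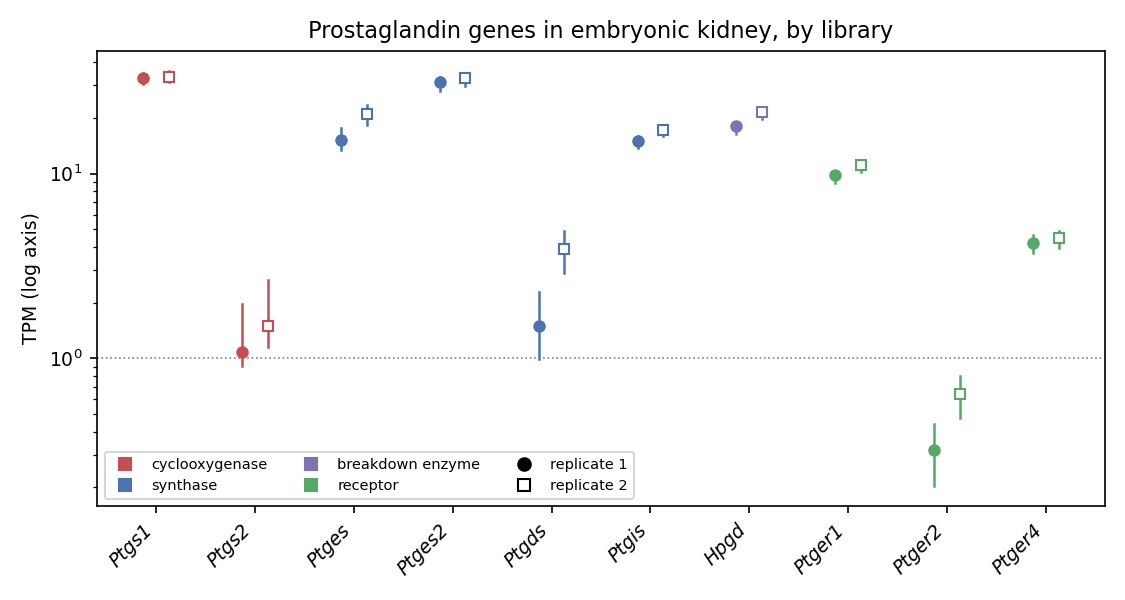
TPM of each of the 10 genes on a log axis, filled circles for replicate 1 and open squares for replicate 2, with lines for the deposited lower and upper bounds and a dotted line at 1 TPM. Ptgs1 and Ptges2 lie above 30 TPM in both libraries, and Ptger2 lies under 1 TPM in both.

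Of the synthases, the prostaglandin E enzymes and prostacyclin synthase lay between 15.1 and 33.0 TPM, and the prostaglandin D enzyme lay far below them. Ptges2 (ENSMUSG00000026820.5, chr2:32395896-32405772, plus strand), a membrane-associated prostaglandin E synthase, stood at 31.3 TPM (27.8 to 33.5) and 33.0 (29.6 to 35.2), from 1156 and 1322 counts. Ptges (ENSMUSG00000050737.13, chr2:30889471-30929863, minus strand), the inducible microsomal prostaglandin E synthase that is often coupled to Ptgs2, stood at 15.3 TPM (13.4 to 17.6) and 20.9 (18.2 to 23.3), from 1060 and 1417 counts. Ptges2 was thus above Ptges in both libraries at the level of the whole gene, 2.05 times in replicate 1 and 1.58 times in replicate 2.

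Ptgis (ENSMUSG00000017969.9, chr2:167191805-167240604, minus strand), prostacyclin synthase, an enzyme known from vessel walls, stood at 15.1 TPM (13.8 to 16.1) and 17.2 (15.9 to 18.3), from 690 and 848 counts. Ptgds (ENSMUSG00000015090.9, chr2:25466709-25470046, minus strand), the lipocalin-type prostaglandin D synthase, stood at 1.49 TPM (0.986 to 2.30) and 3.92 (2.89 to 4.90), from 21 and 63 counts. Ptgis was 10.1 times as high as Ptgds in replicate 1 and 4.39 times in replicate 2. Ptgds was the member of this pair that differed between the libraries, with bounds that did not overlap.

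Hpgd, hydroxyprostaglandin dehydrogenase, which starts the inactivation of prostaglandins by oxidising them, stood among the synthases. Hpgd (ENSMUSG00000031613.8, chr8:56294585-56321043, plus strand) was at 18.1 TPM in replicate 1 (16.3 to 19.0) and 21.6 in replicate 2 (19.7 to 22.6), from 673 and 872 counts. It was 1.19 times as high as Ptges in replicate 1 and 1.03 times in replicate 2, and the bounds of these 2 genes overlapped in both libraries. Against Ptgis, its bounds did not overlap in either library, with Hpgd the higher. Counting coding transcripts alone, Hpgd was 1.44 times as high as Ptges in both libraries, and its bounds then lay above those of the coding transcript Ptges-202 (11.4 to 13.1 and 13.8 to 15.6).

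The receptors for prostaglandin E2 were lower than most of the enzymes and spread widely among themselves. Ptger1 (ENSMUSG00000019464.5, chr8:83666678-83672753, plus strand), which couples to calcium signalling, stood at 9.76 TPM (8.86 to 10.2) and 11.1 (10.2 to 11.6), from 814 and 1028 counts. Ptger4 (ENSMUSG00000039942.11, chr15:5206661-5244187, minus strand), which raises cyclic AMP, stood at 4.23 TPM (3.70 to 4.62) and 4.50 (3.97 to 4.89), from 310 and 358 counts. Ptger2 (ENSMUSG00000037759.5, chr14:44988195-45003820, plus strand), which also raises cyclic AMP, stood at 0.32 TPM (0.205 to 0.443) and 0.64 (0.477 to 0.800), from 26 and 57 counts. The order Ptger1, Ptger4, Ptger2 was the same in both libraries, and no bounds of these 3 overlapped. Ptger4 was 13.2 times as high as Ptger2 in replicate 1 and 7.03 times in replicate 2, so of the receptors that raise cyclic AMP, Ptger4 was the one with the clear signal. Ptger1 was 2.31 and 2.47 times as high as Ptger4 by whole-gene TPM, a ratio that depends on which of its transcripts are counted, as given with the transcripts.

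Of the 10 genes, 9 reached 1 TPM in both libraries, where 62.2% of all protein-coding genes did, and the exception was Ptger2. The list was put together from known genes of the pathway, so this share is given as a description. The median of the 10 genes was 13.3 TPM, beside 5.50 TPM over all protein-coding genes and 20.8 over those that reached 1 TPM in both libraries. Ptgs2, Ptgds and Ptger2 were the thinly counted members, each with fewer than 150 counts in either library, and the other 7 each had 310 or more.

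Summed by role, the synthases led in both libraries, followed by the cyclooxygenases, Hpgd and the receptors. The 4 synthases came to 63.0 TPM in replicate 1 and 75.0 in replicate 2, the 2 cyclooxygenases to 33.8 and 34.9, Hpgd alone to 18.1 and 21.6, and the 3 receptors to 14.3 and 16.3. The synthases were 1.86 and 2.15 times the cyclooxygenases, and the cyclooxygenases 2.36 and 2.14 times the receptors. These are sums of whole-gene TPM, with noncoding transcripts included. Ptges2 made up 49.6% and 44.0% of the synthase sum, and Ptger1 68.2% and 68.4% of the receptor sum. In coding transcripts Ptges2 stood at only 7.04 and 7.39 TPM and Ptger1 at 2.43 and 3.52. The ratios between roles thus depend on the transcripts counted, and sums of coding transcripts were not made. The roles hold different numbers of genes, and by the median of the members the synthases did not lead: Hpgd stood at 18.1 and 21.6 TPM, the cyclooxygenases at 16.9 and 17.4, the synthases at 15.2 and 19.0, and the receptors at 4.23 and 4.5. Ptgs1 makes up nearly all of its sum. As the mean of both libraries, the sum of the cyclooxygenases without Ptgs1 was 1.29 TPM, and that of the receptors without Ptger1 was 4.85 TPM. Since the tissue is a mixture, fewer cells of a type and less RNA per cell cannot be told apart in any of these levels.

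The full order from highest to lowest was Ptgs1, Ptges2, Hpgd, Ptges, Ptgis, Ptger1, Ptger4, Ptgds, Ptgs2 and Ptger2, and it was the same in both libraries. Of the 45 pairs of genes, 40 had bounds that did not overlap, in the same direction, in both libraries. The other 5 pairs were Ptgs1 with Ptges2, Hpgd with Ptges, Ptges with Ptgis, Ptger4 with Ptgds and Ptgds with Ptgs2. Ptger4 was apart from Ptgds in replicate 1 only, and Ptgds from Ptgs2 in replicate 2 only. The bounds cover the uncertainty of counting and assigning reads within a library, not the spread between embryos. No exact test over 2 paired libraries can give a two-sided p under 0.5. With a ratio of 2 or more in both libraries in place of the bounds, 30 pairs stood apart.

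Some of this order turned on which transcripts were counted. The tables hold 29 transcripts of the 10 genes, and the transcript with the highest TPM was the same in both libraries for each gene. For 7 genes it was protein-coding, and for Ptges2, Ptger1 and Ptgds it was annotated as noncoding. The share of all genes led by a noncoding transcript was not worked out, so this count is not shown to be particular to these genes. Ptges2-203, which keeps part of an intron, held 75.8% of the TPM of Ptges2 in replicate 1 and 76.6% in replicate 2, against 22.5% and 22.4% for the coding transcript Ptges2-201. In expected counts the order was the other way, because TPM divides by length: Ptges2-203 (765 nt) took 31.3% and 31.8% of the counts and Ptges2-201 (4978 nt) 68.2% and 68.0%. Of the bases of Ptges2-203, 91.2% lie in exons of Ptges2-201, so only 67 bases (chr2:32397471-32397537) are its own.

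The Ptges2 stretches are shown because these few bases tell the noncoding transcript from the coding one. Both are read from GENCODE M21 on GRCm38, plus strand, and both run into the same exon, in lower case. Capitals mark the intron bases at the start of Ptges2-203 in the first (chr2:32397471-32397567), and in the second the end of the exon that is spliced to it in Ptges2-201.
Ptges2-203 start: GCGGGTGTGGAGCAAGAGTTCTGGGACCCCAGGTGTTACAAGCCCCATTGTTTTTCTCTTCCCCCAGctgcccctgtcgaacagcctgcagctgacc
Ptges2-201 junction: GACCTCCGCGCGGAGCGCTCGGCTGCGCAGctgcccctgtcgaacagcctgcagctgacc

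Ptger1 showed the same kind of split. Ptger1-202, which keeps an intron, held 75.1% of the gene's TPM in replicate 1 and 68.4% in replicate 2, and 69.8% and 62.4% of its counts, so here it led in both units. The doubt about strand given with the overlapping genes applies to these Ptger1 values. The coding transcript Ptger1-201 was at 2.43 TPM (1.90 to 2.92) and 3.52 (2.90 to 3.99), and Ptger1-202 at 7.33 (6.35 to 7.95) and 7.62 (6.65 to 8.24). Of Ptger1-202, 87.9% is shared with exons of Ptger1-201 and 420 bases (chr8:83668847-83669266) are its own. The stretch at that intron is shown for the same reason as in Ptges2, from GENCODE M21 on GRCm38, plus strand. Lower case is the exon before the intron, and capitals are the first bases of the intron in Ptger1-202 (chr8:83668832-83668861) and of the next exon in Ptger1-201.
Ptger1-202 at the intron: tggagccccctgctgGTGAGGGGCGCAGTC
Ptger1-201 at the junction: tggagccccctgctgGTGTTGGTGGTGTTG

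Counting coding transcripts alone, Ptges2 stood at 7.04 and 7.39 TPM, below the 12.6 and 15.03 of Ptges, a reversal of the whole-gene order in both libraries. Ptges was then 1.78 and 2.03 times as high as Ptges2, and the bounds of Ptges2-201 (6.36 to 7.41 and 6.70 to 7.73) did not reach those of Ptges-202 (11.4 to 13.1 and 13.8 to 15.6). The coding levels of Ptges2 and Ptger1 depend on how reads in exons shared with their noncoding transcripts were divided, which was not tested. Ptger4, at 4.1 and 4.4 TPM of coding transcripts, was then 1.69 and 1.25 times as high as Ptger1. That reversal rests on the sum of 2 Ptger4 transcripts, for which the tables give no joint bounds, and in replicate 2 the bounds of Ptger4-201 alone (2.05 to 3.66) overlapped those of Ptger1-201 (2.90 to 3.99). In all, 5 of the 45 pairs changed order in both libraries: Ptges2 fell below Hpgd, Ptgis and Ptges, Ptges below Ptgis, and Ptger1 below Ptger4. Ptges and Ptgis were not apart by whole gene, and the bounds of Ptges-202 also overlapped those of Ptgis-201 (13.0 to 15.4 and 13.5 to 17.1) in both libraries. Ptgds fell below Ptgs2 in replicate 1 only, so the coding order differed between the libraries. Ptgs1, with 84.2% and 86.1% of its TPM in the coding transcript Ptgs1-201, remained the highest gene at 27.6 and 28.8 TPM, and Hpgd came second.

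The leading transcript of Ptgds rested on few reads. Ptgds-204, a processed transcript, held 68.0% and 51.6% of the gene's TPM, but its bounds in replicate 1 ran from 0.000122 to 1.36 TPM, and it had 12.7 and 27.5 expected counts. The coding transcripts of Ptgds came to 0.42 TPM in replicate 1 and 1.74 in replicate 2. Of the remaining genes, Ptges-202 held 82.3% and 72% of the TPM of Ptges, Ptgis-201 99.2% and 93.9% of that of Ptgis, and Ptger4-201 63.2% and 65.8% of that of Ptger4. Ptgs2-201 held 100% of Ptgs2 in replicate 1 and 87.2% in replicate 2, and Hpgd and Ptger2 have 1 annotated transcript each.

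**Figure D2:**
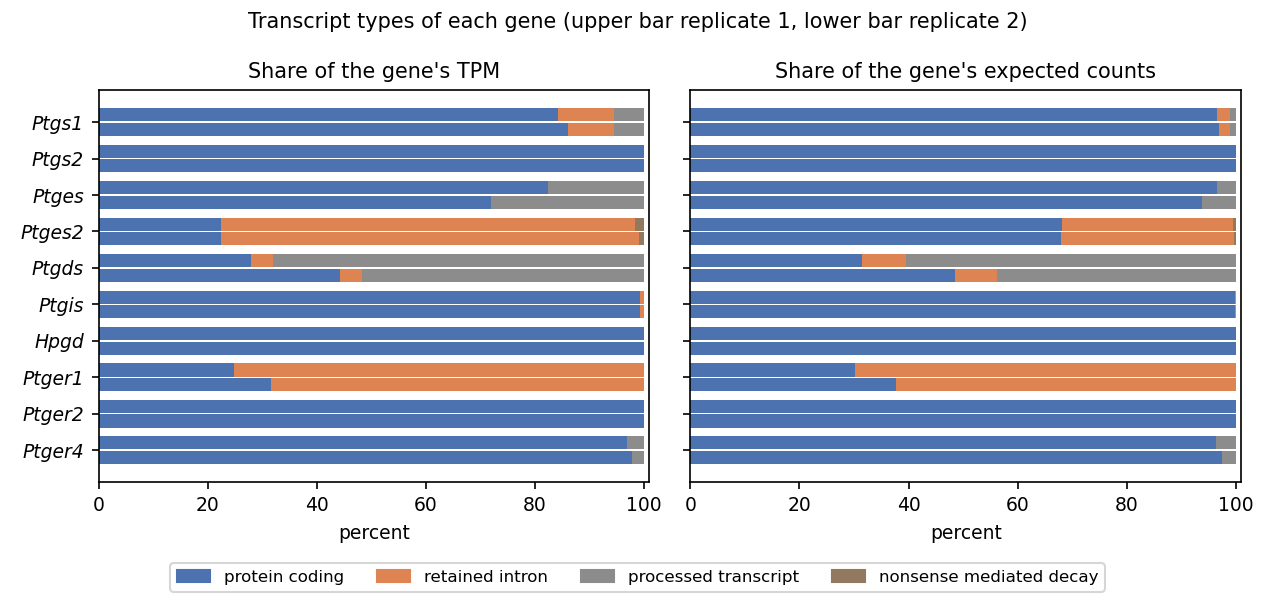
Percent of each gene's TPM (left) and of its expected counts (right) by transcript type, with the upper bar of each gene for replicate 1 and the lower bar for replicate 2. The retained-intron share of Ptges2 falls from 75.8% of TPM to 31.3% of counts in replicate 1, while that of Ptger1 stays above 60% in both units and both libraries.

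Other genes lie over some of the members, and no label or header states whether the counting used strand. Without strand, reads of a member and of a gene opposite to it cannot be told apart, so the level and the transcripts of an overlapped member, those of Ptger1 included, are uncertain. In GENCODE M21, Ptger4 shares 82 exon bases with Ttc33 (36.3 and 38.98 TPM) and 1015 with Gm15937 (0.22 and 0.18 TPM), none of them coding. The coding transcripts Ptger4-201 and Ptger4-202 lie from chr15:5233399 upward, past the ends of Ttc33 (5218336) and Gm15937 (5210147), and share no bases with them. Ptgis shares 156 exon bases with 1110018N20Rik (1.13 and 0.36 TPM) and Ptger2 246 with Gm17173 (0.02 and 0.01 TPM). Ptgis-201 lies from chr2:167202907 upward, past the end of 1110018N20Rik (167192808). Ptgs1 shares 148 with Gm43621, which is not analysed here.

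The 2 pools gave similar levels for most of these genes, and Ptgds differed most. On counts scaled with edgeR's TMM method, all 10 were somewhat higher in replicate 2, with a median log2 ratio of 0.24, beside 0.01 over the 15363 genes averaging 1 CPM or more (counts scaled to library size), of which 52.5% were higher in replicate 2. Past a 2-fold change, 0.579% of those genes were higher and 1.74% lower in replicate 2. Ptgds was the 1 member past it, with a log2 ratio of 1.39, or 2.62-fold. Its raw counts of 21 and 63 gave a ratio per mouse count of 2.71, with an exact 95% binomial interval of 1.63 to 4.68 that covers counting error only. Ptger2 was next with a log2 ratio of 0.96 and a count ratio of 1.98 (1.23 to 3.28). Both had means between 1 and 2 CPM, where 2.34% of 1327 genes were past 2-fold higher in replicate 2.

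The other 8 members differed by less. Their log2 ratios were 0.30 for Ptges, 0.27 for Ptgs2, 0.25 for Hpgd, 0.22 for Ptger1, 0.18 for Ptgis, 0.09 for Ptger4, 0.07 for Ptges2 and 0.05 for Ptgs1. The TPM bounds of replicate 2 lay wholly above those of replicate 1 for 4 members, Ptges, Ptgds, Hpgd and Ptger2, and for 12.0% of all genes tested. They lay wholly below for none of the members and for 9.44% of all genes. Scaling by the spike-in RNAs shifted all genes together and moved their median log2 ratio to 0.43. With 1 pool on each side there is no test of these differences.

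**Figure D3:**
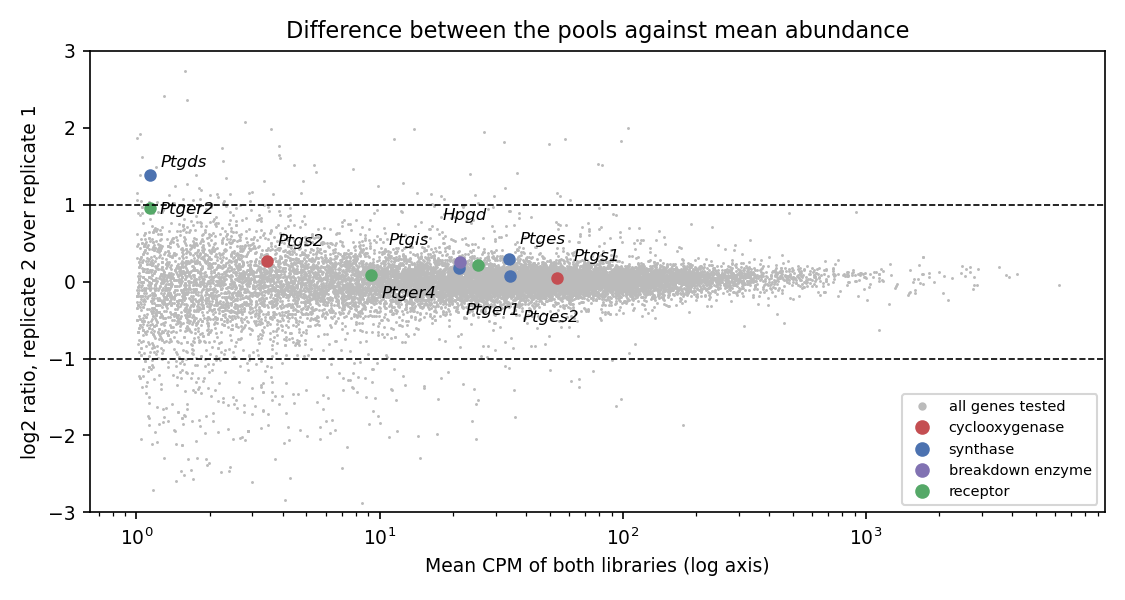
Each dot is a gene with a mean of 1 CPM or more, plotted by that mean (log axis) and by its log2 ratio of replicate 2 to replicate 1. Colours mark the roles of the 10 genes, dashed lines mark 2-fold, and 19 genes lie beyond the axis limits of 3. Ptgds sits above the upper line at 1.39 and Ptger2 just under it at 0.96, both at the low-count end where the other genes also spread widely.

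Kidney markers were present in both libraries, and some markers of the kidney and of tissues near it were unequal between the pools. All markers of nephron progenitors (5), podocytes (5), proximal tubule (5) and collecting duct (7) reached 1 TPM in both libraries, and 4 of 5 for the loop of Henle and macula densa, where Nos1 was at 0.82 and 0.96. Six2, a regulator of progenitor renewal, stood at 13.0 and 11.2 TPM. The summed TPM of nephron progenitor markers was 218 in replicate 1 and 191 in replicate 2, with 1 of 5 genes higher in replicate 2 and Osr1 at 23.2 and 16.9. Proximal tubule markers came to 294 and 337, with all 5 genes higher in replicate 2 and Aqp1 at 41.6 and 58.7. Of the 7 collecting duct genes, 5 were higher in replicate 2, Aqp2 the most (89.6 and 134). Markers of mural and smooth muscle cells came to 783 and 1187. Within that list the contractile genes Acta2 (305 and 564), Tagln (55.01 and 107) and Myh11 (9.47 and 27.2) differed most, while the pericyte gene Pdgfrb (55.1 and 55.3) and Rgs5 (21.04 and 22.7) were close to equal. Sums for urothelium (74.1 and 103) and adrenal cortex (82.0 and 121) were higher in replicate 2, with all 5 genes of each list higher. The sum for skeletal muscle (84.9 and 181) differed mainly through Acta1 (48.3 and 139), while Mylpf was at 22.4 and 21.2. Markers of the gonad came to 2.76 and 9.14 TPM, with 2 of 5 past 1 TPM in both libraries. Among them Insl3, a Leydig cell hormone, was at 1.08 and 6.46, and Dmrt1 and Foxl2 had no count, which allows up to 3 counts per library. Of 5 genes listed for the leptomeninges and choroid plexus, where Ptgds is known to be high, Otx2 was at 0 in both libraries, Foxc1 stood at 3.93 and 2.88 and Ttr at 6.42 and 8.49. Kl (23.1 and 30.8) and Slc6a13 (27.2 and 29.4), which the kidney itself also expresses, made up most of that list's sum of 60.6 and 71.5. The sums of macrophage markers (75.5 and 78.1) and of endothelial markers (461 and 476) were close to equal. The macrophage genes did not all move the same way, with 3 of 5 higher in replicate 2. Among them Adgre1 was at 3.2 and 4.38, while Cx3cr1 was at 6.47 and 4.43. The part of any of these tissues in the higher Ptgds, Ptger2, Ptges and Hpgd of replicate 2 was not tested.

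Around the 10 genes, the wider pathway was measured from release to receptor. The counts of genes at 1 TPM in both libraries stand beside 62.2% of all protein-coding genes. Of 12 phospholipases and related enzymes that free arachidonic acid, 5 reached 1 TPM in both libraries. Pla2g4a, the cytosolic phospholipase that feeds the cyclooxygenases, led with 38.3 (36.5 to 40.4) and 40.7 TPM (38.8 to 42.4), above Ptgs1 with bounds apart in both libraries. Pla2g12a stood at 34.3 and 38.9, Mgll, a lipase of monoacylglycerols, at 26.7 and 29.2, Pla2g6 at 16.9 and 15.4, and Pla2g4b at 2.14 and 1.61. Of the 7 others, the secreted forms Pla2g2d (0.16 and 0.07) and Pla2g5 (0.73 and 0.30) were among those below 1 TPM. The call for Pla2g5 depends on the unit. Its TPM lay outside its deposited bounds (0.951 to 2.82 and 0.570 to 2.00), and its posterior mean TPM was 1.84 and 1.24.

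All 7 other terminal synthases reached 1 TPM in both libraries. Ptges3, a chaperone partner that also has prostaglandin E synthase activity, was by far the highest at 362 and 344 TPM. Akr1b3 (160 and 169) and Cbr1 (142 and 158), reductases with many substrates, and Prxl2b, a prostamide and prostaglandin F synthase (32.0 and 35.5), were also above the microsomal enzyme Ptges. Tbxas1, thromboxane synthase, stood at 6.86 and 7.70 TPM. Hpgds, the prostaglandin D synthase of blood cells, stood at 3.11 and 1.79 TPM, above Ptgds in replicate 1 with overlapping bounds and below it in replicate 2 with bounds apart. Akr1c18 was the lowest at 1.69 and 1.99 TPM.

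All 6 other genes of breakdown and transport reached 1 TPM in both libraries. The reductases that act after Hpgd, Ptgr2 (27.1 and 29.3), Zadh2 (25.4 and 27.2) and Ptgr1 (20.5 and 24.9), stood above its level in both libraries. The uptake carrier Slco2a1, which delivers prostaglandins to Hpgd, was lower at 6.27 and 6.80 TPM, and the export pump Abcc4 was at 6.48 and 6.16. Slco3a1, another carrier, stood at 20.3 and 17.4.

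Of 6 further prostanoid receptors, 4 reached 1 TPM in both libraries. Tbxa2r, the thromboxane receptor, was the highest of all receptors of the pathway measured here, at 16.0 and 16.8 TPM. Ptger3, the prostaglandin E2 receptor that lowers cyclic AMP, stood at 5.32 and 5.49, Ptgfr at 3.40 and 2.84, and Ptgir, the prostacyclin receptor, at 1.54 and 2.15. The receptors for prostaglandin D2 were at the floor, with 1 and 0 counts for Ptgdr and 0 and 5 for Ptgdr2. Of the 41 genes of the wider pathway, 28 had a mean of 1 CPM or more and 0 of these were past 2-fold between the pools, with log2 ratios from -0.34 to 0.44. Of all genes tested, 0.579% were past 2-fold higher in replicate 2 and 1.74% lower, so 0 of 28 is close to those shares.

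**Figure D4:**
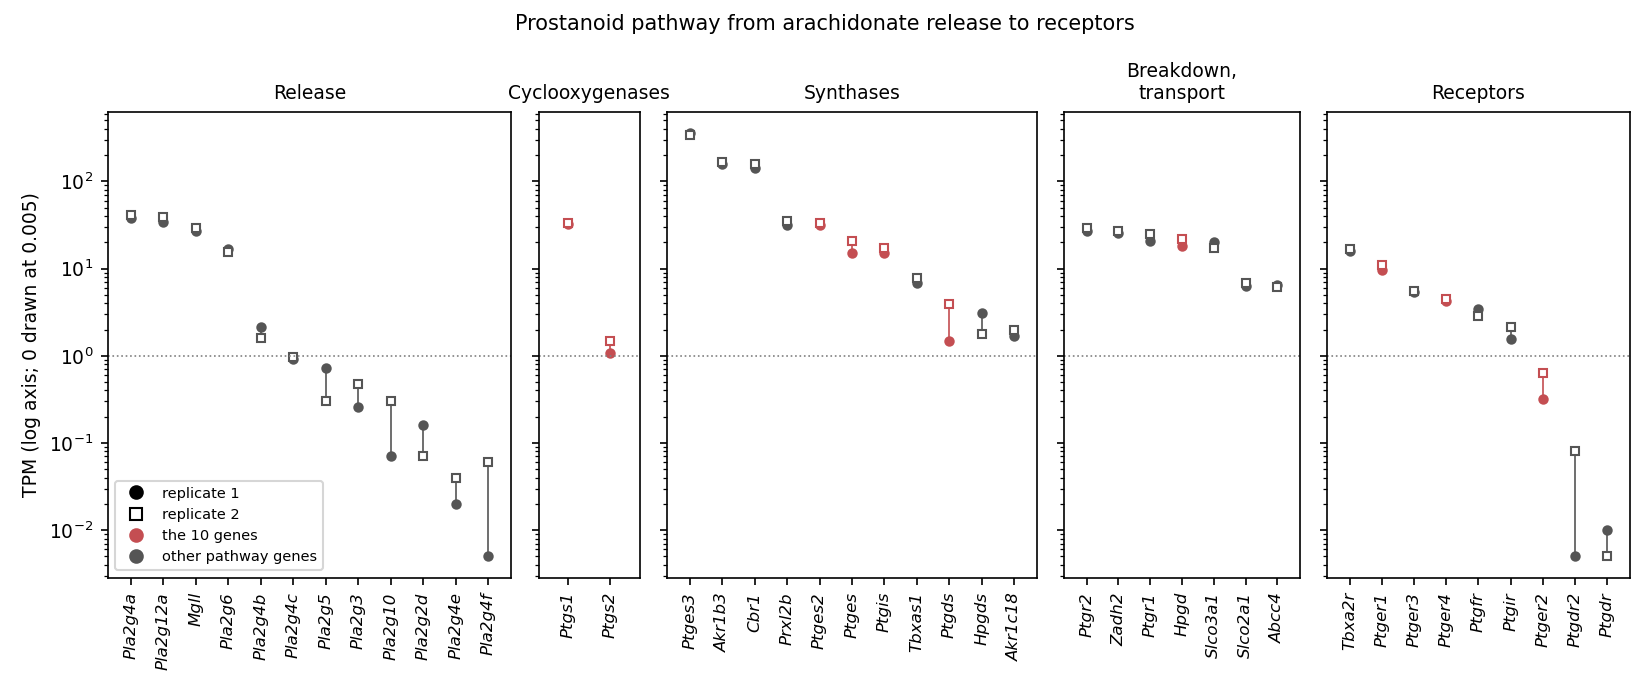
TPM on a log axis (0 drawn at 0.005) of the genes from arachidonate release to the receptors, circles for replicate 1 and squares for replicate 2, with the 10 genes in red, other pathway genes in grey, and a dotted line at 1 TPM. Pla2g4a lies just above Ptgs1, Tbxa2r tops the receptors at 16.0 and 16.8 TPM, and Ptgdr and Ptgdr2 lie far below 1 TPM.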

How the data were processed

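Per the labels, mirVana-extracted total RNA (fragments over 200 nt, 10 ng a library) was sequenced with added spike-in RNAs. The authors deposited, per gene and transcript, expected counts (estimated, not whole), TPM, FPKM and posterior mean TPM. They also deposited lower and upper bounds of TPM and FPKM, a signal that is never negative, and the percent of each transcript within its gene. Values refer to mm10 and annotation M4, per the deposited notes. Aligner, quantifier, strandedness and the level of the bounds: not given in the sources used here. The depth of replicate 1 was 35255968 counts, with 34261328 on mouse genes, and that of replicate 2 was 38706236, with 37900132 on mouse genes. Mouse genes alone entered the comparison of the pools. Spike-ins took 6.31% and 4.66% of TPM. At these depths 10 counts on 2 kb equal 0.218 and 0.201 TPM.

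Names, types and coordinates came from GENCODE M21 on GRCm38 by stable identifier. For the comparison of the pools, rounded expected counts were scaled by edgeR 4.0.16 under R 4.3.3 (TMM factors, prior count 2), and DESeq2 1.42.0 size factors served as an alternative. The code for that comparison was tested on simulated data. Intervals of counts are exact 95% intervals and cover counting error only. Tables used Python 3.11.15, pandas 2.3.3 and scipy 1.17.1, and figures matplotlib 3.10.9. Nothing in the labels says whether the 2 pools came from separate matings, so their spread may be partly technical. The members, gene lists and tests were chosen with earlier results of these data known. All 10 members were named, with every pathway gene at 1 TPM or more in both libraries, and others by example or count. The named examples below 1 TPM and the motifs were chosen without a rule. Alternatives covered units, thresholds, scaling, filters, the transcripts counted and each library alone. Not every gene that overlaps a member is reported here.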

Additional observations from a re-analysis of the deposited data

How the results depend on the processing

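Counting coding transcripts alone, chosen after seeing the data, reversed the order of 5 pairs: Ptges2 over Ptges (mean log2 ratio 0.85, then -0.93), Ptges2 over Ptgis (1.00, then -1.15), Ptges2 over Hpgd (0.70, then -1.45), Ptges over Ptgis (0.15, then -0.22) and Ptger1 over Ptger4 (1.26, then -0.54). The bounds of Ptges and Ptgis overlapped by whole gene, and those of their leading coding transcripts overlapped too. The levels moved past the spread for Ptgs2 with posterior mean TPM (1.59) and, with TPM rescaled to mouse genes, for Ptgs1 (34.99), Ptges2 (34.0) and Ptger4 (4.62). The median of the members in place of the sum gave 17.2 TPM for the cyclooxygenases, 17.1 for the synthases and 4.37 for the receptors, so that Hpgd (19.8) was then the highest. The sums of these roles without their highest member were 1.29, 36.9 and 4.85 TPM, in the same order. Members past 2-fold between the pools numbered 2 with spike-in scaling, 2 with a prior count of 0.5 and 2 at 1.5-fold, where the second was Ptger2, and 0 with a mean of at least 5 CPM. Of all genes, 2.08%, 0.631%, 2.06% and 0.268% were past the line higher in replicate 2 under these settings, and the spike-in count follows the shift of all genes. Members detected ranged from 6 at 5 TPM to 10 at 10 or more counts, and 7 had a lower bound of at least 1 TPM in both libraries. The shares of all genes under these settings were not worked out, so the counts are a description. With either library alone the detected members numbered 9 and the pairs apart 41. Leaving out a library gives no value for the comparison of the pools. No paired analysis was possible because there is 1 group. Depth limits Ptgds and Ptger2 most, at 21 and 26 counts in replicate 1.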

Other observations

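The neighbouring branch of arachidonic acid, which makes leukotrienes and hydroxy acids, was measured for 10 genes, of which 6 reached 1 TPM in both libraries. Lta4h, leukotriene A4 hydrolase, was at 111 and 112 TPM, above every one of the 10 prostaglandin genes described, and it also acts as a peptidase. Alox5ap, the helper protein of 5-lipoxygenase, stood at 7.92 and 11.3 TPM, while the lipoxygenase itself, Alox5, was at 0.52 and 0.75. Alox12 stood at 5.31 and 5.82, Alox15 at 1.66 and 1.70, Ltc4s at 1.19 and 2.11, and the leukotriene receptor Cysltr1 at 3.0 and 2.25. Cysltr2, Ltb4r1 and Ltb4r2 stayed under 1 TPM in both libraries. None of the 5 of these genes with a mean of 1 CPM or more was past 2-fold between the pools. Of all genes tested, 0.579% were past it higher in replicate 2 and 1.74% lower.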
